A study of Homo sapiens with 3 samples.

Results

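GATA2, GATA3, GATA4 and GATA6 are 4 of the 36601 genes counted in these libraries, and they were chosen by symbol alone. The cells were of the established line UCLA1, human embryonic stem cells grown in a culture that the labels call GiMO and collected at day 1, day 2 or day 3. The title of the study concerns the timed response of such cells to BMP4 and the appearance of TFAP2A-positive cells. The labels state neither a dose nor a timing of BMP4. Each day is 1 droplet library, so no replicate check exists and no test between days is given. Day, library and any batch cannot be told apart. For each gene the levels by day are described first, then the marker-defined cells that held its messages.

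In GENCODE release 44 on the human hg38 build, GATA2 (ENSG00000179348) lies on chromosome 3, 128479427 to 128493201, on the minus strand. GATA3 (ENSG00000107485) lies on chromosome 10, 8045378 to 8075198, on the plus strand. GATA4 (ENSG00000136574) lies on chromosome 8, 11676959 to 11760002, on the plus strand. GATA6 (ENSG00000141448) lies on chromosome 18, 22169589 to 22202528, on the plus strand. Antisense genes overlap GATA2 by 3990 bases (GATA2-AS1), GATA3 by 3035 bases (GATA3-AS1) and GATA6 by 290 bases (GATA6-AS1). Whether the counting used strand is not stated in the labels or notes, so counts in those overlaps are uncertain.

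GATA factors are zinc-finger transcription factors that bind the DNA letters for which they are named. GATA2 and GATA3 are used in the blood system and also in amnion and trophoblast, which are extraembryonic epithelia. GATA4 and GATA6 are used in endoderm and in the mesoderm that forms the heart, and GATA6 is an early marker of primitive endoderm and of mesoderm leaving the primitive streak. None of these roles was measured here.

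The promoters of GATA2, GATA3 and GATA6 are shown, of which GATA2 and GATA3 were lower at day 2 than at day 1 while GATA6 was far higher. The promoter of GATA4, which was also higher at day 2, is not shown. Each window runs from 250 bases before to 50 bases after the transcript start, from the RefSeq promoter table on build GRCh38.p14. Where the table held several starts, the one at the GENCODE MANE Select transcript was taken. The windows are chr3:128493152-128493451 on the minus strand for GATA2, chr10:8054438-8054737 on the plus strand for GATA3 and chr18:22169339-22169638 on the plus strand for GATA6. Capitals mark GGCGCC, a GC-rich sequence bound by SMAD proteins of the BMP pathway.
GATA2 promoter: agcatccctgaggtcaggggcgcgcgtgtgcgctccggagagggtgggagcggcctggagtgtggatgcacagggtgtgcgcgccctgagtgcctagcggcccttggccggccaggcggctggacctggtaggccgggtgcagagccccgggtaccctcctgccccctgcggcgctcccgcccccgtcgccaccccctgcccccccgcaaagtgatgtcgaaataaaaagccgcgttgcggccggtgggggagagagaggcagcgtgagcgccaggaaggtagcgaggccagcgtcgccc
GATA3 promoter: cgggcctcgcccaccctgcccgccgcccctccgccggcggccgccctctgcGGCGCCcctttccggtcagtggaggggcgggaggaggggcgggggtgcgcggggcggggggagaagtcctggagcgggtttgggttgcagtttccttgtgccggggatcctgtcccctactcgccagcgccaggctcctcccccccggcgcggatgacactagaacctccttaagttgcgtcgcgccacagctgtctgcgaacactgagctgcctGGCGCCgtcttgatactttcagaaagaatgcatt
GATA6 promoter: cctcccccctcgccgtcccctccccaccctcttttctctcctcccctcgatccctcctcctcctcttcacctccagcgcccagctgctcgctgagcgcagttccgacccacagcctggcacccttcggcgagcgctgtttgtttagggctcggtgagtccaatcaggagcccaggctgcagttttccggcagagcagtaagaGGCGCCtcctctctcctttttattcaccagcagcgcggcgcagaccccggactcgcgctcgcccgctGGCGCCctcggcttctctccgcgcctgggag

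The GC content of these windows is 72.3% for GATA2, 69.3% for GATA3 and 66.7% for GATA6. GGCGCC is found 2 times in the GATA3 window, starting 199 bases before and 16 bases after the transcript start. In the GATA6 window it is also found 2 times, starting 48 bases before and 19 bases after. It is not among the letters of the GATA2 window. Of 35116 promoters of the same length, 19.2% hold it. The TFAP2 sequence GCCNNNGGC has 1 match in each of the 3 windows, and 23.2% of all promoters hold it. In the GATA6 window that match starts 22 bases after the transcript start and overlaps the second GGCGCC. The E-box CANNTG, read by basic helix-loop-helix factors such as MESP1 and HAND1, has 1 match in the GATA3 window and 1 in the GATA6 window but 0 in the GATA2 window, against 68.7% of all promoters. The letters AGATAA or TGATAA are found in none of the 3 windows and in 16.3% of all promoters. Both strands were searched, and a match is a description of the letters only.

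After filtering, the libraries of days 1, 2 and 3 held 3533, 7224 and 6804 cells with 165066758, 118513905 and 136942499 unique molecular identifiers (UMIs). Median UMIs per cell were 41347, 15509.5 and 19174.5, so day 1 was the deepest per cell. The libraries shared 5 cell barcodes between days 1 and 2, 6 between days 1 and 3 and 10 between days 2 and 3. Levels are given in CPM, the sum of a gene's UMIs over the kept cells of a library for every 1000000 UMIs of that library. SOX2, a pluripotency factor, stood at 185, 80.0 and 6.24 CPM at days 1, 2 and 3. MESP1, the early mesoderm factor, stood at 0.642, 78.5 and 316 CPM, and HAND1, a factor of lateral mesoderm and amnion, at 3.04, 25.4 and 447 CPM. Intervals in parentheses are exact 95% intervals that cover counting error only. Since reads were taken from one end of the transcript, levels of different genes are compared only as changes.

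GATA6 and GATA4 were close to undetected at day 1 and were the most changed of the 4 genes. GATA6 stood at 0.533 CPM (0.428 to 0.657) at day 1, 52.2 CPM (50.9 to 53.5) at day 2 and 258 CPM (256 to 261) at day 3. These levels rest on 88, 6189 and 35389 UMIs. Its level at day 2 was 98.0-fold that at day 1 (79.4 to 122), and its level at day 3 was 4.95-fold that at day 2 (4.82 to 5.09). GATA4 stood at 0.951 CPM (0.808 to 1.11), 15.1 CPM (14.4 to 15.8) and 115 CPM (113 to 117) at days 1, 2 and 3, from 157, 1788 and 15745 UMIs. The day 2 level was 15.9-fold that of day 1 (13.5 to 18.8), and the day 3 level was 7.62-fold that of day 2 (7.26 to 8.01). For both genes the larger step in fold thus came between days 1 and 2, and the larger rise in CPM between days 2 and 3.

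GATA3 and GATA2 were already present at day 1, were lower at day 2 and were highest at day 3. GATA3 stood at 22.6 CPM (21.8 to 23.3), 18.7 CPM (17.9 to 19.5) and 51.1 CPM (49.9 to 52.3) at days 1, 2 and 3, from 3722, 2215 and 6997 UMIs. Its day 2 level was 0.829 times that of day 1 (0.786 to 0.874), and its day 3 level was 2.73-fold that of day 2 (2.61 to 2.87). GATA2 stood at 4.28 CPM (3.97 to 4.61), 2.51 CPM (2.24 to 2.82) and 14.4 CPM (13.8 to 15.04), from 707, 298 and 1971 UMIs. Its day 2 level was 1.70-fold lower than that of day 1, and its day 3 level was 5.72-fold that of day 2 (5.07 to 6.49).

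A gene was called higher or lower between days from a ratio of 1.5, without a test. Between day 2 and day 1, GATA4 and GATA6 were called higher, which 21.2% of the 14220 genes with at least 2 CPM were. GATA2 was called lower, which 5.63% of those genes were, and GATA3 was called neither. Scaling by trimmed means instead of the total put GATA3 at 0.664 times its day 1 level, past the 1.5-fold mark. The median gene stood 0.23 higher on the log2 scale at day 2 than at day 1 under scaling by totals, so GATA2 at -0.77 and GATA3 at -0.27 lay below that shift. Between day 3 and day 2 all 4 genes were called higher, against 14.3% of 14657 genes, and the median gene moved by 0.02. Between day 3 and day 1 all 4 were called higher as well, against 32.1% of 14589 genes, with ratios of 485 for GATA6, 121 for GATA4, 3.36 for GATA2 and 2.27 for GATA3.

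To compare shares of cells, every cell was thinned to 5000 UMIs, which left 3499, 6740 and 6675 cells. GATA6 was then found in 0.400%, 15.3% and 57.7% of the thinned cells at days 1, 2 and 3, and GATA4 in 0.429%, 7.003% and 36.4%. GATA3 was found in 10.3%, 8.38% and 20.4% of cells, and GATA2 in 2.26%, 1.19% and 6.31%. Without thinning the shares were 2.29%, 25.0% and 79.1% for GATA6, 3.45%, 16.9% and 68.9% for GATA4, 49.1%, 21.5% and 48.8% for GATA3 and 15.3%, 3.85% and 19.5% for GATA2. The unthinned share of GATA3 was as high at day 1 as at day 3 although its level in CPM was lower at day 1, the day with the deepest cells, so no order is read from it. The single cell with the most thinned GATA6 UMIs had 1 at day 1, 8 at day 2 and 12 at day 3.

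**Figure D1:**
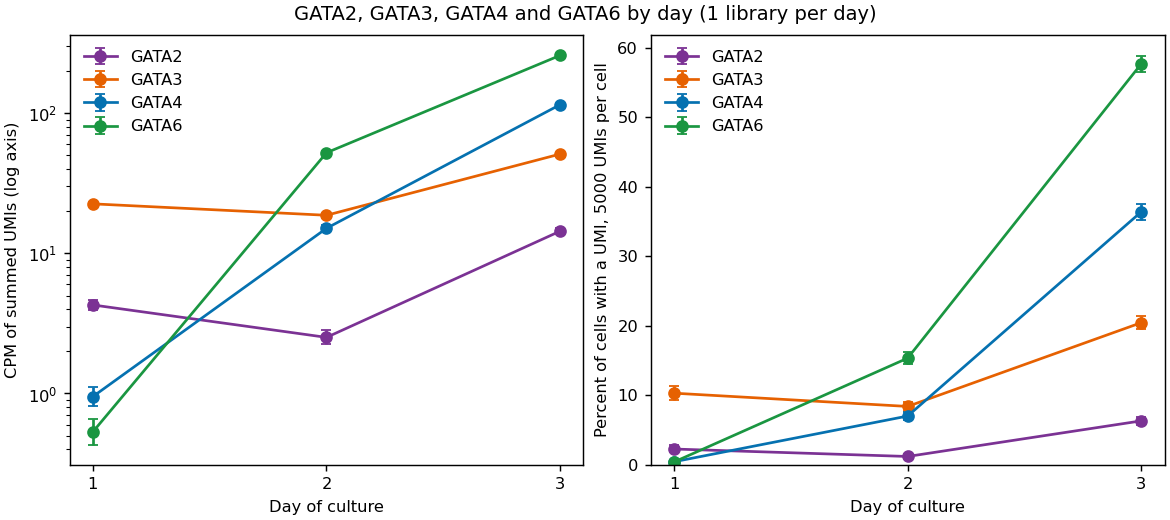
Left, each gene's CPM (log axis) by day of culture; right, percent of cells with at least 1 UMI after thinning each cell to 5000 UMIs. Points are 1 library each and bars are exact 95% intervals of counting error; GATA6 stands at 0.533, 52.2 and 258 CPM at days 1, 2 and 3, while GATA2 and GATA3 have their lowest level at day 2.

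The relatives and antisense neighbours of the 4 genes were followed as a list of 6. GATA1, the erythroid factor, stood at 0.0303, 0.0253 and 0.0438 CPM at days 1, 2 and 3 and did not reach the 2 CPM minimum. GATA5 was also under it, at 1.79, 1.18 and 1.67 CPM. TRPS1, an atypical GATA-type repressor, stood at 27.1, 53.8 and 134 CPM and was called higher at each step. GATA6-AS1 stood at 0.0303, 3.22 and 26.1 CPM, an order of days like that of GATA6. GATA2-AS1 stood at 0.715, 0.793 and 3.52 CPM and GATA3-AS1 at 1.48, 2.20 and 6.32 CPM. The day 2 over day 1 ratio of GATA2-AS1 was 1.11 (0.837 to 1.47) under scaling by totals, so no order of these days is read for it, while that of GATA3-AS1 was 1.48 (1.24 to 1.77). Of the measured members of this list, 4 of 4 were called higher at day 3 over day 2, against 14.3% of all genes, and 2 of 3 at day 2 over day 1, against 21.2%.

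Marker-defined cells were then taken within each library as cells with at least 1 thinned UMI of a marker, and their levels were set beside those of all other cells of the same library. Cells of a library are not replicates, and the gates overlap. The cells taken as background had SOX2 but none of TBXT, MIXL1, MESP1, HAND1 and TFAP2A, and numbered 1738, 1121 and 53 at days 1, 2 and 3. In them GATA6 stood at 0.394, 1.89 and 15.4 CPM, GATA4 at 0.626, 1.60 and 8.17 CPM, GATA3 at 18.7, 9.17 and 10.9 CPM and GATA2 at 3.70, 1.30 and 1.82 CPM. The share of these cells with a thinned UMI was 0.288%, 1.16% and 3.77% for GATA6 and 8.11%, 3.57% and 0% for GATA3, where 0 of 53 cells at day 3 has an exact upper limit of 6.72%. Their median depths were 44701.5, 16410 and 19572 UMIs. For GATA6 and GATA4, a share at or under these values is not told apart from background at this depth. Free RNA can give UMIs to cells that do not express a gene. GATA3, in contrast, was found in 8.11% of the day 1 cells of this class. At day 1 TFAP2A was found in 6.03% of thinned cells and 29.8% of unthinned cells, and EOMES was not among the markers left out. Cells of this class can therefore hold a lineage marker at full depth. Whether GATA3 at day 1 lay outside cells with a lineage marker cannot be told from this class. The part of free RNA in the GATA3 share was not tested.

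At day 1 the cells with HAND1 had the highest GATA2 and GATA3 levels among gates of at least 20 cells, and those with TFAP2A came next for GATA3. In the 40 cells with HAND1, GATA3 stood at 55.9 CPM (45.4 to 68.1), against 22.2 CPM in other cells, and GATA2 at 14.1 CPM (9.14 to 20.8), against 4.18 CPM. GATA6 had 0 UMIs in these 40 cells, where 3 UMIs would be 1.69 CPM. In the 211 cells with TFAP2A, the AP-2 factor of amnion and surface ectoderm, GATA3 stood at 43.5 CPM (39.6 to 47.7), against 21.2 CPM in other cells. GATA2 stood at 8.62 CPM in cells with TFAP2A, against 4.00 CPM in other cells. Their shares with a UMI of GATA3 were 32.5% in the HAND1 cells and 23.7% in the TFAP2A cells, above the 8.11% of the background cells, with median depths of 37902.5 and 43255 UMIs. Cells with the streak markers MIXL1 (180 cells) and EOMES (296 cells) had GATA3 at 34.8 and 33.1 CPM. A thinned GATA4 UMI was found in 0 of the MIXL1 cells, where the exact upper limit is 2.03%, and in 1.01% (0.210 to 2.93) of the EOMES cells, against 0.575% (0.276 to 1.06) of the background cells. Neither share separated from background at this depth. Over all UMIs of the gated cells, GATA4 stood at 4.37 CPM (3.12 to 5.95) in MIXL1 cells, against 0.751 CPM in other cells, on 40 UMIs. In EOMES cells it stood at 2.505 CPM (1.78 to 3.42), against 0.790 CPM in other cells, on 39 UMIs. GATA4 was thus low at day 1 but higher in cells with these streak markers.

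At day 2 GATA6 and GATA4 were concentrated in cells with mesoderm markers. The 1273 cells with MESP1, which were 18.9% of cells, held 66.4% of all GATA6 UMIs and 49.3% of all GATA4 UMIs. GATA6 stood at 183 CPM (178 to 189) in these cells, against 21.7 CPM in other cells, a ratio of 8.45 (8.01 to 8.92). GATA4 stood at 39.0 CPM (36.4 to 41.7) in them, against 9.35 CPM, a ratio of 4.17 (3.79 to 4.59). GATA3 stood at 25.8 CPM, against 17.2 CPM in other cells, and GATA2 at 3.80 CPM, against 2.24 CPM. A GATA6 UMI was found in 50.9% of the MESP1 cells, against 1.16% of the background cells, at median depths of 15942 and 16410 UMIs. LHX1, a homeobox factor of streak and early mesoderm, marked 533 cells with GATA6 at 247 CPM (237 to 258) and GATA4 at 56.3 CPM (51.5 to 61.5). In the 216 cells with TBX6, the T-box factor of paraxial mesoderm, GATA6 stood at 271 CPM (254 to 289) and GATA4 at 41.6 CPM (35.1 to 49.0). The intervals of GATA4 in the LHX1 and TBX6 gates did not overlap, while those of GATA6 did.

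GATA3 followed other markers at day 2. Its highest level among gates of at least 20 cells was 62.3 CPM (40.7 to 91.3) in the 22 cells with both TFAP2A and ISL1, a homeobox factor of amnion and heart progenitors. The other cells stood at 18.6 CPM. The 177 cells with ISL1 stood at 49.5 CPM (41.9 to 58.0), against 18.0 CPM in other cells, and the 447 cells with TFAP2A at 36.4 CPM (32.3 to 40.9), against 17.5 CPM. The 198 cells with HAND1 but no MESP1 had GATA3 at 46.2 CPM (39.5 to 53.8), against 27.6 CPM (22.8 to 33.0) in the 269 cells with both. GATA6 took the other order between these 2 gates, at 59.4 CPM without MESP1 and 262 CPM with it. GATA4 stood at 18.2 CPM without MESP1 and 55.3 CPM with it. GATA2 did not separate them, at 6.33 CPM (4.01 to 9.50) without MESP1 and 5.79 CPM (3.75 to 8.54) with it.

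By day 3 a GATA6 UMI was found in 68.5% of MESP1 cells, 73.6% of LHX1 cells and 60.6% of HAND1 cells, and the gates told the 4 genes apart. The 4157 cells with MESP1 had GATA6 at 314 CPM (311 to 318), against 163 CPM in other cells, a ratio of 1.93 where day 2 had 8.45. The 4291 cells with LHX1 had it at 343 CPM (339 to 347), against 102 CPM, and held 86.1% of its UMIs. Cells with TBX6, 783 in number, had GATA6 at 1.51 times (1.47 to 1.55) its level in other cells, GATA4 at 0.904 times (0.860 to 0.951), GATA3 at 0.634 times (0.581 to 0.692) and GATA2 at 0.530 times (0.442 to 0.632). GATA2 in MESP1 cells was 0.584 times its level in other cells, at 11.4 CPM against 19.5 CPM. GATA3 in MESP1 cells was 0.711 times its level in other cells, at 44.3 CPM against 62.4 CPM.

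HAND factors marked the cells with the most GATA2 and GATA4 at day 3. The 1588 cells with HAND1 but no MESP1 had GATA2 at 27.5 CPM (25.7 to 29.4), against 10.4 CPM in other cells, and GATA3 at 76.6 CPM (73.6 to 79.7), against 43.2 CPM. MESP1 was found in 62.3% of thinned and 81.85% of unthinned day 3 cells, so part of this gate can hold MESP1 at full depth. The 1071 cells with MESP1 but no HAND1 had GATA2 at 6.37 CPM (5.37 to 7.51) and GATA3 at 28.5 CPM (26.4 to 30.9). GATA6 took the opposite order, at 179 CPM in HAND1 cells without MESP1 and 327 CPM in MESP1 cells without HAND1. HAND2, a partner of GATA4 in heart development, marked 199 cells at day 3. GATA4 stood at 407 CPM (387 to 427) in them, against 106 CPM in other cells, while GATA6 stood at 78.7 CPM (70.1 to 88.0), against 264 CPM. A GATA4 UMI was found in 74.9% of these cells and a GATA6 UMI in 34.2%, against 5.66% and 3.77% of the background cells, at median depths of 17505 and 19572 UMIs. GATA2 at 26.7 CPM (21.8 to 32.4) was 1.90-fold its level in other cells, 14.1 CPM.

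The 69 cells with both TFAP2A and ISL1 at day 3 had the highest GATA3 level of all gates of at least 20 cells, 172 CPM (151 to 195), against 49.8 CPM in other cells. A GATA3 UMI was found in 50.7% of them, at a median depth of 18016 UMIs. GATA6 stood at 35.0 CPM (25.8 to 46.4) in these cells, against 261 CPM in other cells, a ratio of 0.134. That ratio was 0.232 with no doublets removed and 0.0518 with at least 2 UMIs of both markers, so its size depends on those choices. GATA4 stood at 76.5 CPM, against 115 CPM in other cells, and GATA2 at 16.8 CPM (10.6 to 25.2), against 14.4 CPM. Cells with IGFBP3, a secreted protein of amnion, were 91 in number and had GATA3 at 125 CPM (109 to 143) and GATA6 at 59.9 CPM (48.8 to 72.7). In the 812 cells with ISL1, GATA3 stood at 82.9 CPM (78.5 to 87.5), against 46.8 CPM, and GATA6 at 171 CPM (165 to 178), against 270 CPM in other cells.

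Among the 235 SOX17 cells of day 3, those with an endoderm marker and those with a germ cell marker differed in GATA content. These gates hold only part of the SOX17 cells. Over all SOX17 cells GATA6 stood at 229 CPM (216 to 243) and GATA4 at 103 CPM (94.5 to 113). The 27 cells with SOX17 and FOXA2, factors of definitive endoderm, had GATA6 at 473 CPM (417 to 535), GATA4 at 189 CPM (154 to 229) and GATA3 at 107 CPM (80.7 to 138). GATA2 had 0 UMIs in these 27 cells, where 3 UMIs would be 5.61 CPM. The 65 cells with SOX17 and TFAP2C, factors that primordial germ cells share, had GATA6 at 11.2 CPM (5.94 to 19.1), GATA4 at 10.3 CPM (5.32 to 18.0), GATA3 at 27.5 CPM (18.8 to 38.8) and GATA2 at 9.44 CPM (4.71 to 16.9). GATA6 and GATA4 in the germ cell gate lay within the intervals of the SOX2 background cells, 15.4 CPM (8.99 to 24.7) and 8.17 CPM (3.73 to 15.5). The median depths of these gates were 19288 UMIs for SOX17 with FOXA2 and 15499 UMIs for SOX17 with TFAP2C.

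**Figure D2:**
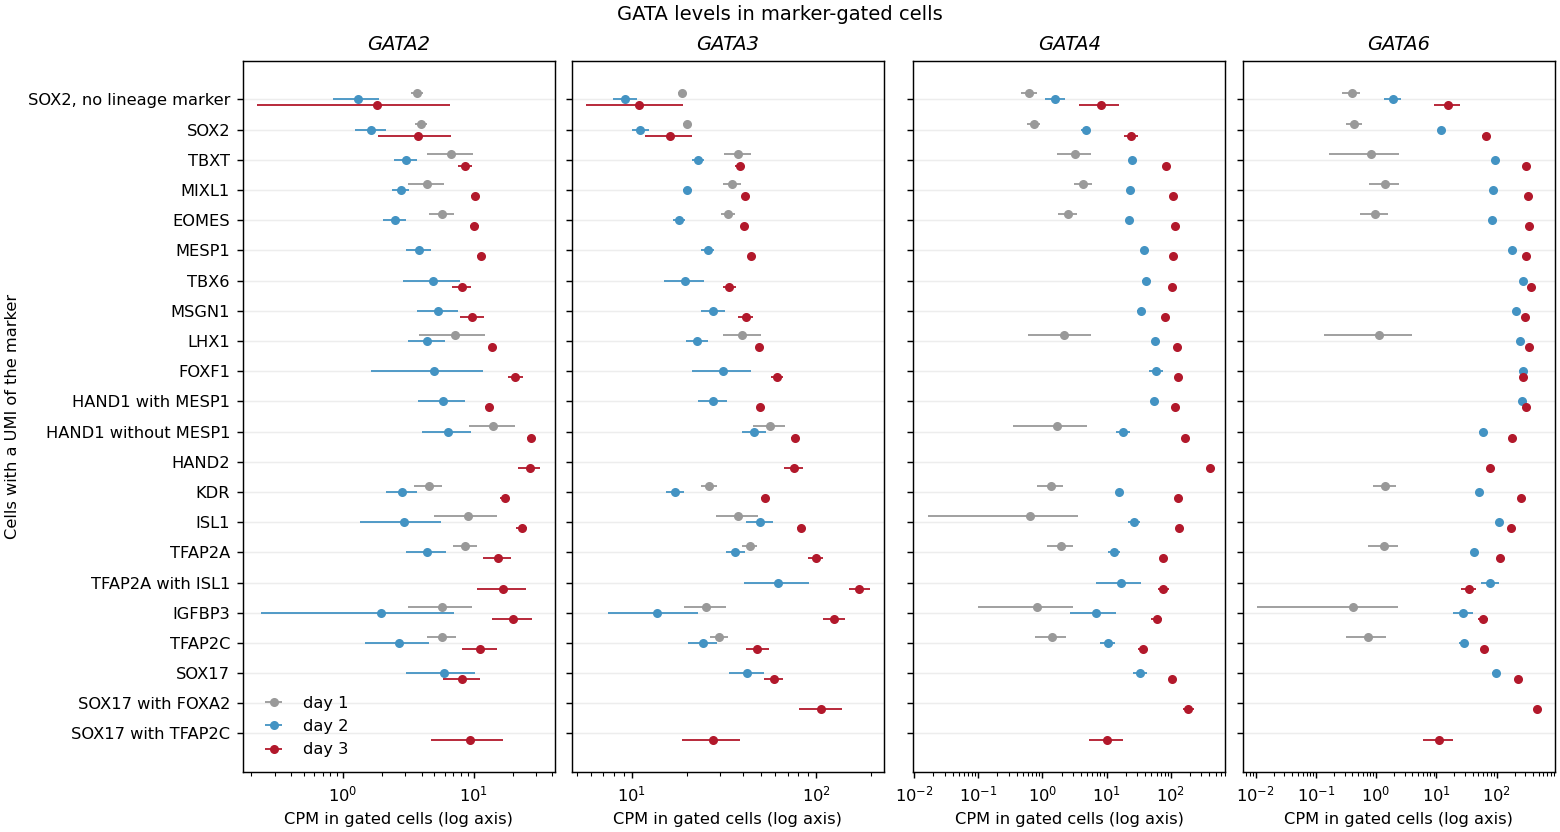
Level of each gene in CPM on a log axis (horizontal) in cells with at least 1 thinned UMI of the named marker (vertical), by day, with exact 95% intervals of counting error. At day 3 GATA4 is farthest right in HAND2 cells at 407 CPM, GATA3 in cells with TFAP2A and ISL1 at 172 CPM, and GATA6 in cells with SOX17 and FOXA2 at 473 CPM.

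The levels also varied with the number of marker UMIs in a cell. At day 2, cells with 0, 1, 2 and 3 or more thinned MESP1 UMIs had GATA6 at 21.7, 128, 204 and 266 CPM. GATA4 in the same bins stood at 9.35, 30.3, 38.6 and 54.6 CPM. At day 3 GATA6 stood at 163, 271, 320 and 350 CPM over these bins, GATA3 at 62.4, 52.6, 44.3 and 36.9 CPM and GATA2 at 19.5, 13.4, 10.6 and 10.2 CPM. GATA6 was thus higher in each further bin on both days, while GATA3 was lower in each further bin at day 3. GATA2 was lower up to 2 UMIs. Its intervals at 2 UMIs (9.256 to 11.99 CPM) and at 3 or more (9.125 to 11.32 CPM) overlapped, so no order is read between those bins. Over 0, 1, 2 and 3 or more HAND1 UMIs at day 3, GATA2 stood at 6.15, 9.68, 14.5 and 23.3 CPM and GATA3 at 32.9, 44.2, 51.5 and 68.7 CPM. GATA4 stood at 76.3, 122, 132 and 135 CPM over those HAND1 bins, and GATA6 at 240, 307, 300 and 234 CPM. GATA6 was therefore highest in the middle of the HAND1 range and GATA2 and GATA3 at its upper end.

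**Figure D3:**
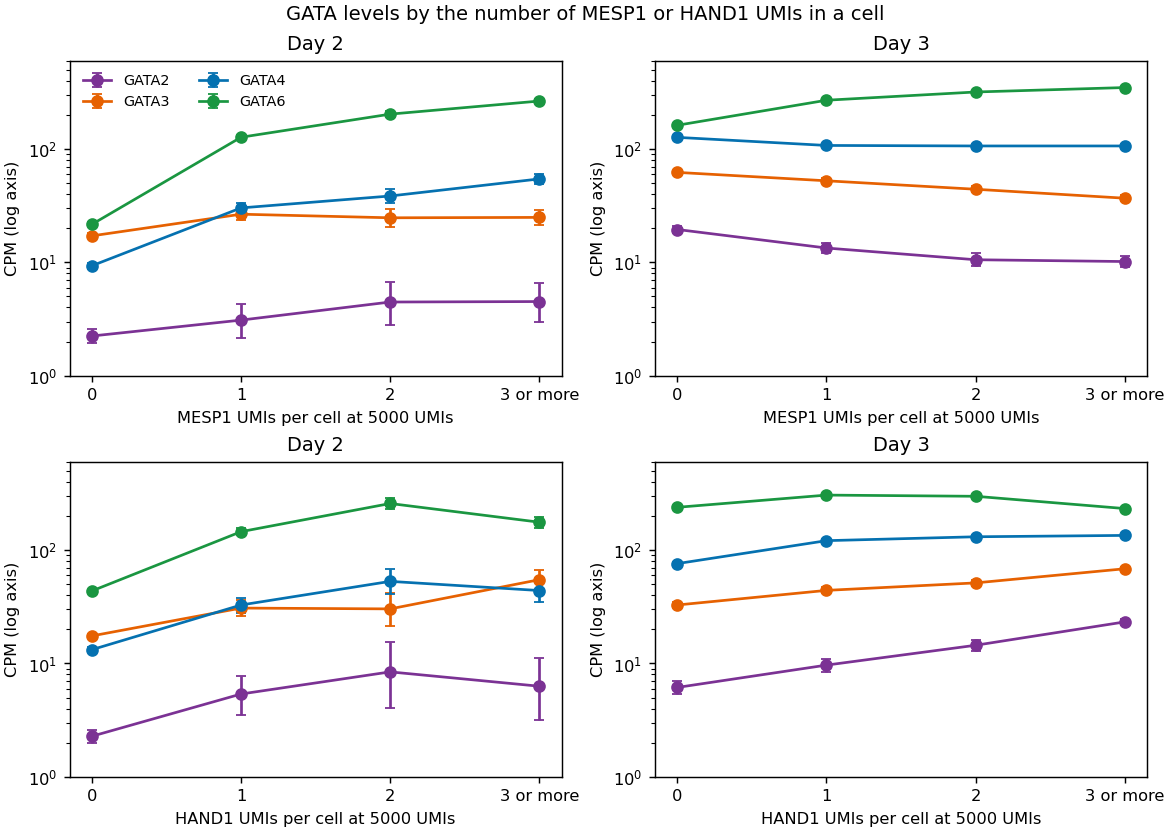
Level of each gene in CPM (log axis) in cells grouped by their number of thinned MESP1 UMIs (top) or HAND1 UMIs (bottom), at day 2 and day 3, with exact 95% intervals of counting error. At day 3 GATA2 runs down to 10.2 CPM over the MESP1 bins and up to 23.3 CPM over the HAND1 bins.

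Cells were also clustered without the 4 GATA genes and their antisense neighbours, which gave 12 clusters and 23 cluster and day pairs of at least 50 cells. Cluster 10 was called amnion-like because 10 of 10 amnion markers were raised in it, with IGFBP3 and WNT6 leading. Cluster 7 was called lateral mesoderm-like, with 8 of 9 markers raised and PMP22 leading. Cluster 6 was called nascent mesoderm-like, with 8 of 8 markers raised and MSGN1 and TBX6 among its leading genes. It also had 8 of 12 primitive streak, 4 of 8 paraxial mesoderm and 4 of 9 lateral mesoderm markers raised. Its name therefore does not set it apart from streak cells. Cluster 1 had 6 of 8 pluripotency markers raised. Cluster 0 was led by NRG2 and LHX1 and cluster 9 by SOX17 and PRDM1, and both stayed unnamed because they mixed markers of several types. Clusters 8 and 11 also stayed unnamed, since their cells had few UMIs.

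At day 3 the order of clusters differed for each gene. GATA3 was highest in the amnion-like cluster at 158 CPM (144 to 173, 160 cells), followed by cluster 11 at 73.1 CPM (55.4 to 94.7) and the lateral mesoderm-like cluster at 70.4 CPM (66.9 to 74.1), whose intervals overlap. Cluster 0 at 51.9 CPM and cluster 9 at 49.2 CPM came next, also with overlapping intervals, and cluster 1 was lowest at 12.7 CPM (9.39 to 16.9). GATA2 was highest in the lateral mesoderm-like cluster at 25.5 CPM (23.4 to 27.7, 1098 cells) and stood at 19.9 CPM (15.1 to 25.6) in the amnion-like cluster, with overlapping intervals. Cluster 0 followed at 15.7 CPM (14.8 to 16.6), and clusters 11, 3, 6, 4 and 9 lay between 5.78 and 7.70 CPM, where their intervals overlap.

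GATA4 in the lateral mesoderm-like cluster stood at 192 CPM (186 to 198), above cluster 0 at 131 CPM (128 to 134) and the nascent mesoderm-like cluster at 72.3 CPM (68.8 to 76.0). Cluster 11, with 126 cells and a median of 5335 UMIs, had the highest value, 348 CPM (308 to 392). GATA6 was at 358 CPM (317 to 402) in cluster 11, 352 CPM (347 to 356) in cluster 0 and 337 CPM (330 to 345) in the nascent mesoderm-like cluster. The lateral mesoderm-like cluster had 76.9 CPM (73.2 to 80.7) of GATA6, and the amnion-like cluster had 10.8 CPM (7.37 to 15.2), overlapping cluster 1 at 10.6 CPM (7.58 to 14.5). The amnion-like cluster thus had the highest GATA3 together with a GATA6 interval that overlapped that of the cluster with pluripotency markers. At day 2 its 141 cells already had GATA3 at 82.7 CPM (71.3 to 95.5), with GATA2 at 2.65 CPM, GATA4 at 6.19 CPM and GATA6 at 11.5 CPM. In the 478 nascent mesoderm-like cells of day 2, GATA6 stood at 327 CPM (314 to 340), near its day 3 level in that cluster, while GATA4 was at 56.4 CPM (51.2 to 62.0).

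**Figure D4:**
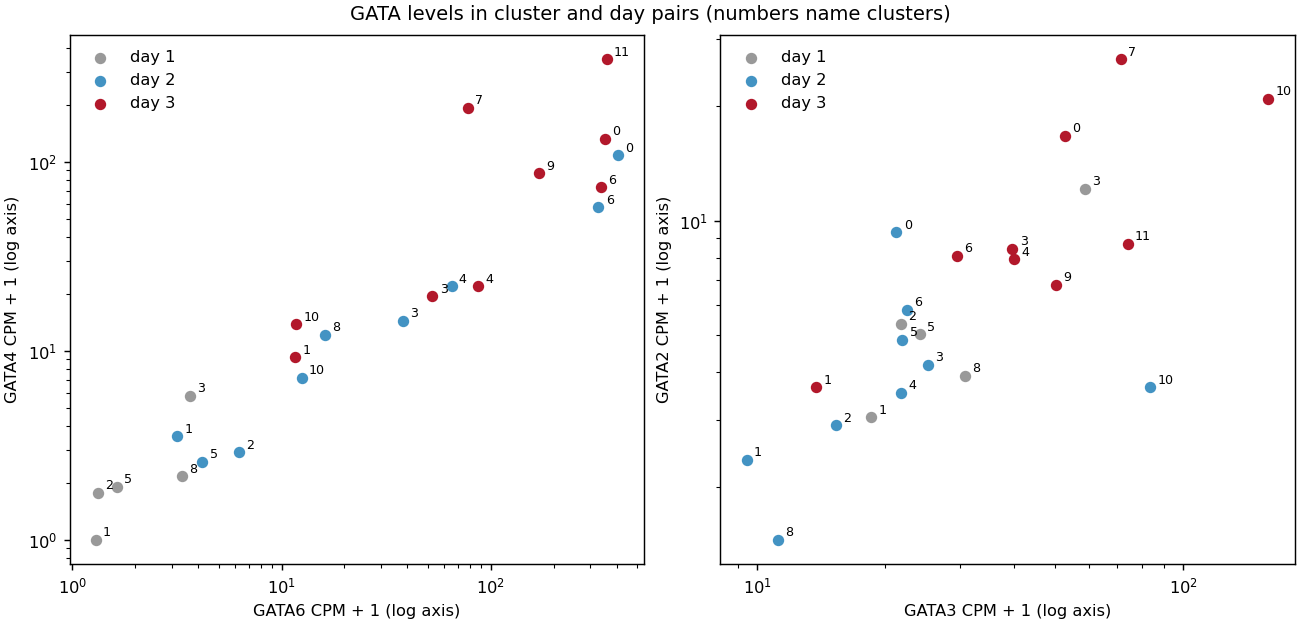
Each point is 1 cluster in 1 library; left, GATA4 against GATA6, right, GATA2 against GATA3, in CPM + 1 on log axes. The lateral mesoderm-like cluster 7 (GATA4 192 and GATA6 76.9 CPM) lies apart from cluster 0 at day 3 (131 and 352 CPM), and the amnion-like cluster 10 has the highest GATA3, 158 CPM at day 3.

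Across the 23 cluster and day pairs, log2(CPM + 1) of GATA4 and GATA6 had a Pearson r of 0.94, GATA2 and GATA3 of 0.77, and GATA3 and GATA6 of 0.29. These values are descriptions, since pairs share libraries and depth. They also pool the days, so the low GATA4 and GATA6 of the day 1 pairs enter the r of 0.94. Within day 3 the order of clusters differed between GATA4 and GATA6, as given above. The genes most like GATA6 were RSPO3, a WNT enhancer, with r = 0.97, and LRIG3, AL117329.1, GATA6-AS1 and PLXNA2, each with 0.95. For GATA4 they were ITGA5, the alpha chain of a fibronectin receptor, and BMPER, a BMP-binding protein, each with 0.96, and then HAS2, AC026167.1 and COLEC12 with 0.95. For GATA3 BAMBI, a pseudoreceptor of BMP signalling, had 0.89, ISL1, IER5L and AHNAK 0.86 and AC010478.1 0.85. BAMBI was also first for GATA2, with 0.86, followed by SLC4A2 with 0.83, GADD45G and POMGNT1 with 0.82 and HOXB-AS3 with 0.81. With clusters at resolution 1.0, which gave 27 pairs, POMGNT1 and HOXB-AS3 left the 5 most alike genes of GATA2 and 3 stayed, while 4 of 5 stayed for each of the other GATA genes.

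The 4 genes were next followed in the same cells at 5000 UMIs. No GATA gene was found in 87.3%, 73.5% and 22.1% of the thinned cells at days 1, 2 and 3, and all 4 were found in 0, 1 and 24 cells. GATA4 and GATA6 were found together in 199 cells at day 2, where independence would give 72.3 cells, a ratio of 2.75 (2.39 to 3.15). At day 3 they were together in 1631 cells, against 1400 under independence, a ratio of 1.17 (1.12 to 1.22). Of the day 3 cells with GATA4, 67.2% also had GATA6, against 52.2% of the cells without GATA4. GATA2 and GATA3 met in 18 cells at day 1, against 8.13 under independence, a ratio of 2.21 (1.31 to 3.50). At day 2 they met in 10 cells, with a ratio of 1.49 (0.715 to 2.74), and at day 3 in 131 cells, against 86.0, a ratio of 1.52 (1.28 to 1.80). GATA3 and GATA6 had a ratio of 1.10 (0.889 to 1.34) at day 2, and at day 3 they were together in 701 cells, against 786 under independence, a ratio of 0.892 (0.830 to 0.956). GATA3 with GATA4 had a ratio of 1.44 (1.09 to 1.86) at day 2 and 0.996 (0.913 to 1.08) at day 3. For GATA2 with GATA6 the ratio was 1.79 (1.13 to 2.71) at day 2, on 22 cells, and 0.861 (0.750 to 0.984) at day 3, on 209 cells. These ratios have no test, and the part of the mix of cell types in them was not tested.

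**Figure D5:**
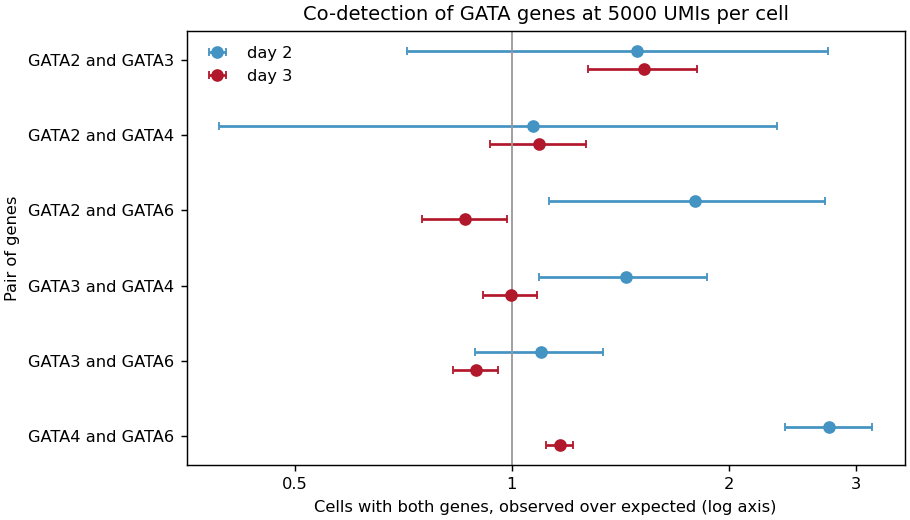
Cells with both genes of a pair divided by the number under independence (log axis), at 5000 UMIs per cell, for days 2 and 3, with exact 95% intervals of counting error; the line marks 1. GATA4 with GATA6 lies at 2.75 at day 2 and 1.17 at day 3, and GATA3 with GATA6 at 0.892 at day 3.

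The rest of the transcriptome was compared between cells with and without a thinned UMI of each GATA gene. GATA6-positive cells were 1033 of 6740 at day 2 and 3848 of 6675 at day 3. Of 9955 genes, 5.29% were at least 1.5-fold higher and 6.07% lower in them at day 2, and 2.8% and 6.17% of 9813 genes at day 3. On both days 141 genes were higher and 220 lower, and 59 and 73 at a ratio of 2. CER1, a secreted inhibitor of NODAL and BMP, stood at 226 CPM in GATA6-positive cells, against 19.8 CPM in GATA6-negative cells, at day 2, and at 170 CPM, against 39.2 CPM, at day 3, ratios of 11.4 and 4.33. The forkhead factor FOXC1 had ratios of 9.57 and 3.91, CNKSR3 of 7.997 and 3.53, the homeobox factor GSC of 3.82 and 3.41, IRX3 of 7.25 and 3.05 and MAMLD1 of 11.97 and 2.999. SOX2 stood at 16.1 CPM in GATA6-positive cells, against 87.1 CPM in GATA6-negative cells, at day 2, and at 1.61 CPM, against 11.5 CPM, at day 3. LNCPRESS1, a long noncoding RNA of pluripotent cells, was 5.08-fold lower at day 2 and 6.64-fold lower at day 3, and VAT1L was 3.91-fold and 4.31-fold lower.

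Lineage genes of the lists gave a different picture at day 3 than at day 2 around GATA6. At day 2 LHX1 was 14.2-fold higher in GATA6-positive cells, PDGFRA, a receptor of mesoderm, 8.87-fold, TBX6 8.85-fold, MSGN1 8.62-fold, MESP1 8.07-fold, GATA4 4.31-fold and HAND1 4.38-fold. At day 3 LHX1 was 2.67-fold, TBX6 2.69-fold, PDGFRA 1.81-fold and MESP1 1.77-fold higher, while the ratios of MSGN1 at 1.37, GATA4 at 1.23 and HAND1 at 0.959 passed no mark. Genes of the cardiac and lateral mesoderm list went both ways at day 3. NKX2-5, a heart factor, stood at 13.7 CPM in GATA6-positive cells, against 6.23 CPM in GATA6-negative cells. TMEM88 had a ratio of 0.583, TBX20 of 0.516, ISL1 of 0.430 and HAND2 of 0.328, all called lower, and MYL4 of 0.882, BMP4 of 1.18, TBX3 of 1.18 and FOXF1 of 1.32, called neither. IGFBP3 stood at 0.884 CPM, against 18.8 CPM, TFAP2C at 1.92 CPM, against 18.5 CPM, NANOS3 at 0.728 CPM, against 12.7 CPM, and TFAP2A at 4.11 CPM, against 14.3 CPM. Genes with low levels in GATA6-positive cells at day 3 thus included markers of amnion and of germ cells, and also HAND2, at 5.25 CPM, against 16.0 CPM in GATA6-negative cells.

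GATA4-positive cells numbered 472 at day 2 and 2428 at day 3. They had 4.37% of 9922 genes higher and 3.64% lower at day 2, and 1.5% higher and 3.03% lower of 9713 genes at day 3, with 29 genes higher and 62 lower on both days, and 0 and 9 at a ratio of 2. ZEB2, a repressor active in epithelial to mesenchymal transition, was 3.60-fold and 1.86-fold higher at days 2 and 3. LIPG, PAG1, NCAM1 and EGFLAM had ratios of 2.21 to 3.24 at day 2 and 1.65 to 1.83 at day 3. LNCPRESS1, TMEM178B and USP44 were lower, by 2.66-fold to 3.61-fold at day 2 and by 2.76-fold to 5.83-fold at day 3. HAND2 stood at 21.5 CPM in GATA4-positive cells, against 3.11 CPM in GATA4-negative cells, at day 3, a ratio of 6.92, while in GATA6-positive cells its ratio was 0.328. ZFPM2, which encodes the GATA4 cofactor FOG2, showed the same contrast, with 75.2 CPM in GATA4-positive cells, against 29.1 CPM in GATA4-negative cells, and 37.3 CPM in GATA6-positive cells, against 57.5 CPM in GATA6-negative cells.

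GATA3-positive cells numbered 360, 565 and 1364 at days 1, 2 and 3. Genes higher in them were 2.73%, 1.9% and 2.12% of those measured, and genes lower were 1.46%, 1.77% and 1.23%, with 41 higher and 12 lower on both of days 2 and 3, and 3 and 0 at a ratio of 2. TFAP2A stood at 29.4, 29.0 and 13.2 CPM in GATA3-positive cells, against 11.2, 13.3 and 7.19 CPM in GATA3-negative cells, and was called higher on each day. ADAMTS18, ANKRD1, AMOT, CLSTN2 and CCBE1 were higher on days 2 and 3, with ratios of 2.40 to 3.45 at day 2 and 1.85 to 2.67 at day 3. FOXD3-AS1, KIAA0825 and TMEM132B were 1.75-fold to 1.87-fold lower at day 2 and 2.24-fold to 2.53-fold lower at day 3. MSX1, a homeobox target of BMP signalling, was 4.17-fold higher at day 1 and 2.21-fold higher at day 2 in GATA3-positive cells, and at day 3 its ratio of 1.18 passed no mark. IGFBP3 was 2.99-fold higher in them at day 3, at 18.0 CPM, against 6.03 CPM in GATA3-negative cells.

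GATA2-positive cells were few, 79, 80 and 421 at days 1, 2 and 3. Genes higher in them were 10.7%, 10.1% and 3.32% of those measured and genes lower were 10.9%, 12.5% and 3.56%. At days 1 and 2 a gene at 10 CPM rests on about 4 UMIs in so few cells, and the days with fewer positive cells had the larger shares. On both of days 2 and 3, 35 genes were higher and 65 lower, but 1 and 12 at a ratio of 2, so these counts are not read as a pattern shared by the days. ACTC1, cardiac alpha actin, stood at 322 CPM in GATA2-positive cells, against 160 CPM in GATA2-negative cells, at day 3, a ratio of 2.01 (1.85 to 2.18), and had a ratio of 1.90 (1.08 to 3.10) at day 2. RSPO4, ZNF516, SCRN3, TMEM185A and FURIN had ratios of 1.84 to 2.05 at day 3 and 2.02 to 3.97 at day 2. The day 2 intervals of RSPO4 (0.689 to 5.09), ZNF516 (0.649 to 4.79) and TMEM185A (0.947 to 4.42) include 1. LINC02163, AC026341.1 and EPB41L4B were the lowest, 3.15-fold to 3.93-fold lower at day 3. CER1, the gene highest with GATA6, was lower with GATA2 at day 2, with a ratio of 0.483 (0.231 to 0.891), and at day 3, with 0.342 (0.273 to 0.424). Its day 1 interval, 0.00586 to 1.31, includes 1. Of the cardiac and lateral mesoderm list, MYL4 at 2.37-fold, TBX20 at 1.98-fold and TMEM88 at 1.98-fold were called higher in GATA2-positive cells at day 3. HAND2 at 1.95-fold, FOXF1 at 1.92-fold, HAND1 at 1.61-fold and ISL1 at 1.52-fold were called higher as well. NKX2-5 had a ratio of 1.38, TBX3 of 1.37, BMP4 of 1.325 and PDGFRA of 1.045, all called neither. GATA3 was 2.58-fold higher in GATA2-positive cells at day 1.

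Genes that work with GATA factors were followed as lists between days, each read beside all genes. Of all genes, 21.2% were called higher and 5.63% lower at day 2 over day 1, and 14.3% higher and 16.5% lower at day 3 over day 2. Of 22 listed partners, 16 were measured at day 3 over day 2, and 7 were higher, against 14.3% of all genes, and 0 lower. Their median log2 ratio was 0.45, against 0.02 over all genes. HAND2 at 8.76 CPM was 35.8-fold its day 2 level, TBX20 at 20.6 CPM 20.7-fold, KLF1 at 5.44 CPM 14.0-fold, NKX2-5 at 10.8 CPM 8.996-fold and ZFPM2 at 43.0 CPM 5.57-fold. The general coactivator EP300 had a ratio of 1.07 and the BMP mediator SMAD1 of 1.12. At day 2 over day 1, 4 of 12 measured partners were higher, against 21.2% of all genes, and 1, FLI1, was lower, and the median was 0.38, against 0.23 over all genes. ZFPM1, which encodes the cofactor FOG1, stood at 34.5, 25.3 and 32.7 CPM at days 1, 2 and 3, with its lowest level at day 2 as GATA2 and GATA3 had, though its ratios of 0.731 and 1.29 passed no mark.

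Cardiac and lateral mesoderm genes of the list kept with GATA4 and GATA6 were higher for 6 of 8 measured at day 2 over day 1, against 21.2% of all genes, and for 11 of 13 at day 3 over day 2, against 14.3%. Their median log2 ratio was 1.30, against 0.23 over all genes, at the first step and 3.46, against 0.02, at the second. HAND1 was 17.6-fold and BMP4 12.1-fold higher at day 3 than at day 2, and TNNT2, a troponin of heart muscle, was lower at both steps. Endoderm genes were higher for 2 of 3 measured at the first step, against 21.2% of all genes, with AFP lower at a ratio of 0.588, and for 5 of 6 at the second, against 14.3%. SOX17 was 22.4-fold higher at day 2 over day 1 and 2.46-fold higher at day 3 over day 2. Among 11 amnion and trophoblast genes measured at each step, 5 were called higher, against 21.2% of all genes, and 2 lower at day 2 over day 1, while 6 were called higher, against 14.3%, and 1 lower at day 3 over day 2. The lower gene at that second step was TFAP2A, at 8.57 CPM at day 3, against 15.1 CPM at day 2, where GATA3 was 2.73-fold higher. Of 12 listed blood and endothelial genes, 5 were measured at the first step and 8 at the second. Of those measured, 3 of 5 were higher at the first step, against 21.2% of all genes, and 5 of 8 at the second, against 14.3%. TAL1 and CDH5, with 1 and 7 UMIs in the whole day 3 library, were under the 2 CPM minimum at both steps. LMO2 was higher by 2.61-fold and 2.93-fold and KDR by 2.20-fold and 1.60-fold at these steps, while EGFL7 was lower at the first, with a ratio of 0.626. Of 10 BMP response genes, 3 were higher at day 2 over day 1, near the 21.2% of all genes, and 2 lower, against 5.63%. At day 3 over day 2, 4 were higher, against 14.3%, and 1 lower, against 16.5%. ID1 was at 741, 450 and 199 CPM at days 1, 2 and 3, and MSX1 at 5.11, 28.8 and 208 CPM. The lists were chosen with results of these data known, and their counts are descriptions.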

How the data were processed

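The authors deposited 1 filtered matrix of UMI counts per library, whole numbers with no normalisation. Per the submitters' processing notes these counts were made with Cell Ranger 5.0.1 on hg38. Neither further filters nor the use of strand is stated there. The time label gave the day of every library.

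A barcode was kept if it had 1000 genes or more and no more than 20% of its UMIs from mitochondrial genes, and this filter removed 24.8%, 25.4% and 7.62% of barcodes at days 1, 2 and 3. Doublets were scored against simulated doublets, and the highest-scoring cells were removed at a fixed 0.8% per 1000 barcodes, which took out 144, 668 and 457 cells. CPM is a gene's UMIs summed over kept cells and scaled to a total of 1000000. For shares, gates and positive cells, each cell was thinned to 5000 UMIs, which left out 34, 484 and 129 shallower cells. Gate levels use all UMIs of the gated cells. Intervals are exact Poisson, binomial or conditional binomial at 95% and cover counting error only. With 1 library per day, a call means a ratio of 1.5, with no p-value.

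Clusters used 2000 variable genes without the 4 genes and their antisense neighbours, 30 principal components, 15 neighbours and the Leiden method at resolution 0.5 (igraph 0.11.9, scikit-learn 1.9.0). Likeness is Pearson r of log2(CPM + 1) over cluster and day pairs. Scripts used numpy 2.4.6, scipy 1.17.1 and pandas 2.3.3 and were tested on simulated data with known changes. edgeR 4.0.16 and DESeq2 1.42.0 gave scaling factors for alternatives only.

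Besides listed and marker genes, the text names for each GATA gene the 6 genes highest and 3 lowest in positive over negative cells, by the less extreme ratio of days 2 and 3, and the 5 with the highest r. The members and lists were chosen with earlier results of these data known. Alternatives covered scaling, cell filters, doublets, thinning depth, gate size, minimum levels and cluster resolution. A gene that the naming rule picked is not reported here.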

Additional observations from a re-analysis of the deposited data

Results flagged for a closer look

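Several marker gates had a GATA gene at least 1.5-fold higher than in other cells on one day and at least 1.5-fold lower on another. With 1 library per day these differences between days were not tested, and no explanation is weighed. For GATA2 in MESP1 cells the ratio to other cells was 1.697 at day 2 and 0.5842 at day 3. In TBX6 cells it was 1.995 and 0.5304, in MSGN1 cells 2.261 and 0.6618, and in SOX17 cells 2.382 and 0.5581, again at days 2 and 3. The GATA2 values of day 2 in TBX6 and SOX17 cells rest on 17 and 12 UMIs. TBXT cells had GATA2 at 1.595 times the level of other cells at day 1 and at 0.5366 times at day 3. GATA3 in MIXL1 cells stood at 1.595 times the level of other cells at day 1 and at 0.6092 times at day 3.

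GATA6 in ISL1 cells had a ratio of 2.147 at day 2 and 0.6338 at day 3. In TFAP2A cells GATA6 had a ratio of 2.835 at day 1, on 14 UMIs, and 0.4344 at day 3, and GATA4 had 2.187 at day 1, on 20 UMIs, and 0.6484 at day 3. GATA4 in TFAP2C cells had a ratio of 1.513 at day 1, on 15 UMIs, and 0.3111 at day 3. That day 1 interval, 0.8252 to 2.581, includes 1, so no higher level at day 1 is read for it. At day 1 both genes were under 2 CPM in these TFAP2A and TFAP2C cells. The shares with a thinned GATA4 UMI, 0% and 0.418%, were not above the 0.575% of the SOX2 cells taken as background. The GATA6 shares, 1.42% (0.294 to 4.10) and 1.255% (0.260 to 3.62), rest on 3 cells in each gate. The TFAP2C interval includes the GATA6 share of those background cells, and the TFAP2A interval starts close to it. Neither share is therefore read as above background. Over all UMIs, GATA4 stood at 1.94 CPM (1.18 to 2.99) in the TFAP2A cells, against 0.886 CPM in other cells.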

How the results depend on the processing

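No paired analysis was possible because each day is 1 library. The alternative without the clusters of few UMIs was chosen after seeing the data. Of 56 alternative values of the ratios between days, 45 moved by less than counting error and 0 changed direction. Under TMM or median-of-ratios scaling, which set the median gene at -0.09 where totals gave 0.23 (log2), the day 2 over day 1 ratio was 0.470 and 0.469 for GATA2, 0.664 and 0.663 for GATA3, 12.7 and 12.7 for GATA4 and 78.4 and 78.3 for GATA6. GATA6 at day 3 over day 2 was 5.11 over all barcodes, 5.12 with median-of-ratios scaling and 4.71 as a mean of cells' own CPM. In MESP1 cells of day 2 its ratio to other cells was 7.30 with at least 2 UMIs, 11.9 for gates at 10000 UMIs and 7.80 with no doublets removed. In HAND2 cells of day 3 the ratios under the same 3 settings were 4.68, 3.39 and 3.62 for GATA4 and 0.253, 0.358 and 0.352 for GATA6. With at least 2 UMIs of the marker, GATA4 in LHX1 cells of day 2 had 5.96, GATA3 in TFAP2A cells of day 1 2.28 on 16 cells, and at day 3 GATA2 in HAND1 cells without MESP1 3.05 and GATA3 and GATA6 in cells with TFAP2A and ISL1 3.96 and 0.0518 on 12 cells. GATA6 in HAND1 cells without MESP1 at day 3 had 0.442 for gates at 10000 UMIs, and in cells with TFAP2A and ISL1 0.232 with no doublets removed. All 8 co-detection alternatives stayed within counting error, and 35 of 36 shares moved with the thinning depth or the number of UMIs asked for. Genes higher and lower on days 2 and 3 in GATA2-positive cells were 1 and 12 at a ratio of 2 and 5 and 5 at 50 CPM. The counts were 3 and 0, then 6 and 3, for GATA3, 0 and 9, then 4 and 4, for GATA4, and 59 and 73, then 50 and 38, for GATA6. The list counts followed the minimum level. At day 2 over day 1 with no minimum, 1 GATA relative was lower, 8 partners were higher and 3 lower, 9 amnion and trophoblast genes were higher, 5 hemato-endothelial genes higher and 2 lower, 5 endoderm genes higher and 2 lower, and 11 cardiac and lateral genes higher and 2 lower. At 10 CPM for that comparison, 1 GATA relative was higher, 2 partners higher and 0 lower, 2 amnion genes higher and 1 lower, 1 endoderm gene higher and 0 cardiac genes lower. At day 3 over day 2 with no minimum, 2 partners and 2 cardiac genes were lower and 10 endoderm genes higher, and at 10 CPM the higher genes were 2 relatives, 3 partners, 3 amnion genes, 1 hemato-endothelial gene and 2 endoderm genes, with 0 cardiac genes lower. For the moved values other than those counts the cause was not tested. Small counts limit the day 1 values of GATA6 and GATA4, with 88 and 157 UMIs in the whole library, and the day 2 value of GATA2, with 298.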

Other observations

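Cells with KDR, a receptor of blood and vessel progenitors, differed from other cells by less than 1.5-fold in each of the 4 GATA genes at day 3. The 1713 KDR cells had GATA2 at 17.3 CPM, against 13.4 CPM in other cells, GATA3 at 52.8 CPM, against 50.4 CPM, GATA4 at 130 CPM, against 109 CPM, and GATA6 at 256 CPM, against 259 CPM. In the 109 cells with ETV2, a factor of the same progenitors, GATA2 stood at 17.3 CPM (12.2 to 23.8), against 14.4 CPM. The 105 cells with NANOS3, a germ cell gene, had GATA4 at 34.1 CPM (26.4 to 43.4), against 116 CPM, and GATA6 at 74.9 CPM (63.2 to 88.1), against 261 CPM, while GATA3 at 41.3 CPM (32.8 to 51.4) and GATA2 at 10.8 CPM (6.71 to 16.6) lay nearer to other cells, at 51.1 and 14.5 CPM.

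Cells with POSTN, a matrix gene of extraembryonic mesoderm, were 54, 67 and 11 at days 1, 2 and 3. At day 2 they had GATA6 at 26.8 CPM (18.3 to 37.8), against 52.6 CPM in other cells. FOXF1, a forkhead factor of lateral mesoderm, marked 61 cells at day 2 with GATA6 at 271 CPM (240 to 305), against 50.4 CPM, and 521 cells at day 3 with 277 CPM (267 to 287), against 257 CPM.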
